A study of Mus musculus with 10 samples.

Results

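Transcript levels of 34 genes that feed, run and connect the tricarboxylic acid (TCA) cycle were compared between atrial and ventricular cardiomyocytes, the beating muscle cells of the heart, in mice. The genes were chosen by name: 16 encode enzymes or subunits of the cycle, 6 the entry of pyruvate into it, 4 matrix enzymes that refill or drain it, 4 the enzymes of the malate-aspartate shuttle, and 4 cytosolic enzymes that share its substrates. All 34 were found among the 25239 gene symbols of the tables. Every library came from animals of genotype WT, 5 from cardiomyocytes of the atrium (aCM) and 5 from cardiomyocytes of the ventricle (vCM), with no treatment named. Age, sex, strain, the way the cells were isolated and whether the libraries of a chamber came from separate animals were not stated in the labels. What the p-values weigh is thus the scatter among libraries, part of which may be technical.

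The TCA cycle oxidizes acetyl-CoA in the mitochondrial matrix and hands the electrons to NADH and, through succinate dehydrogenase, to ubiquinone in the respiratory chain. Pyruvate from glycolysis or lactate crosses the inner mitochondrial membrane through the mitochondrial pyruvate carrier and is turned into acetyl-CoA by the pyruvate dehydrogenase complex. The malate-aspartate shuttle brings the reducing power of cytosolic NADH into the matrix by means of paired mitochondrial and cytosolic enzymes. Heart muscle lives mainly on oxidative metabolism, and its mitochondria are rich in these enzymes.

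Reads recovered per library came to 1790402 to 12842635. In depth and in the share of reads assigned to the ribosomal RNA transcript Rn45s the libraries fell into sets that the labels do not name: replicates 1 and 2 of both chambers had 0.215% to 0.480% Rn45s and replicates 3 to 5 had 23.1% to 29.8%. Each chamber is spread over both sets by the same replicate numbers, and results are given within each set where that matters. Within replicates 1 and 2 depth followed the chamber, with 4445287 and 3893406 reads in atrial and 1790402 and 2461191 in ventricular libraries. Replicate 1 had 21576 genes detected in its atrial and 19232 in its ventricular library, against 15950 to 16618 in the others. The part of this in the differences was not tested. The chamber labels were borne out by marker genes. All 5 atrial markers were higher and all 4 ventricular markers lower in the atrial libraries by limma at an adjusted p under 0.05, and of 5 markers common to all cardiomyocytes none passed (median log2 difference -0.14). Of those 5, Tnnt2 had an unadjusted p under 0.05 and passed with DESeq2, and none passed with edgeR. With the replicate number as a block in the limma model, Tnnt2 (-0.48, adjusted p = 0.000906) and Actc1 (-0.28, adjusted p = 0.0368) were lower in the atrial libraries. Markers of other cells moved with the chamber, and some with the replicate set as well. All 5 epicardial markers were higher in the atrial libraries (summed level 2273 to 5412 against 294 to 1399 normalized reads). Of 5 smooth muscle markers, Myh11 and Acta2 were lower (summed level of all 5, 1507 to 6384 against 8313 to 15180). Cnn1 went the other way (1.76) and passed as higher with that block (limma adjusted p = 0.0001), edgeR and DESeq2. Of 7 fibroblast markers, Pdgfra and Lum were lower, while the summed level of all 7 overlapped (21295 to 36229 against 9141 to 63133). Pdgfra and Lum both differed more within replicates 3 to 5 (-2.81 and -2.69) than within replicates 1 and 2 (-0.82 and -0.58). Postn, Col1a1, Dcn, Col1a2 and Col3a1 had negative differences within replicates 3 to 5 and positive ones within replicates 1 and 2. For Postn (-1.82 and 0.67) and Col1a1 (-0.86 and 0.95) this change passed limma's interaction test. Kdr, 1 of 6 endothelial markers, was higher, while the summed level of all 6 overlapped (338 to 2341 against 102 to 1201). So was Csf1r higher among 3 immune markers tested (summed level of all 6 listed, 75.3 to 157 against 24.2 to 132). With the block the endothelial gene Egfl7 was also higher (0.73, limma adjusted p = 0.0175) and the adipocyte marker Fabp4 lower (-1.37, limma adjusted p = 0.0317). The part of these other cells in the results below was not tested. The adipocyte markers summed to at most 374 normalized reads in any library. Of 5 erythroid markers, the 4 haemoglobin genes stood at 0 in all 10 libraries. The other, Alas2, had 19.5 to 634 normalized reads in atrial and 81.2 to 263 in ventricular libraries. Its difference did not pass and was -1.77 within replicates 3 to 5 and 0.36 within replicates 1 and 2.

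Of the 34 genes, 19 were lower in atrial cardiomyocytes and none was higher (limma on log2 of the normalized reads plus 1, Benjamini-Hochberg adjusted p under 0.05 over 12422 genes). The difference was negative for 31 of 34, against 51.3% of all genes, and the median over the 34 was -0.59 against -0.01 over all genes tested. Over all genes, 6.56% were lower and 8.12% higher in atrial libraries. Me3 alone was higher at an unadjusted p under 0.05, and it was also the 1 gene higher with edgeR and with DESeq2. For 18 of the 34 every atrial library lay below every ventricular library, against 6.55% of all genes, and for none did every atrial library lie above, against 7.84% of all genes. In a bulk measurement such as this one, fewer cells of a type and less RNA per cell cannot be told apart. With the libraries scaled to equal totals, 15 of the 34 were lower and 1, Me3, was higher, while over all genes 539 were lower and 1014 higher against 815 and 1009 in the main fit. Idh3g, Fh1, Got1, Pdha1 and Pdhb lost their calls under that scaling. With equal totals counted without Rn45s, 15 were lower and none higher, while over all genes 644 were lower and 1065 higher. Idh3a, Suclg1, Mdh1 and Got1 lost their calls under this scaling.

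**Figure D1:**
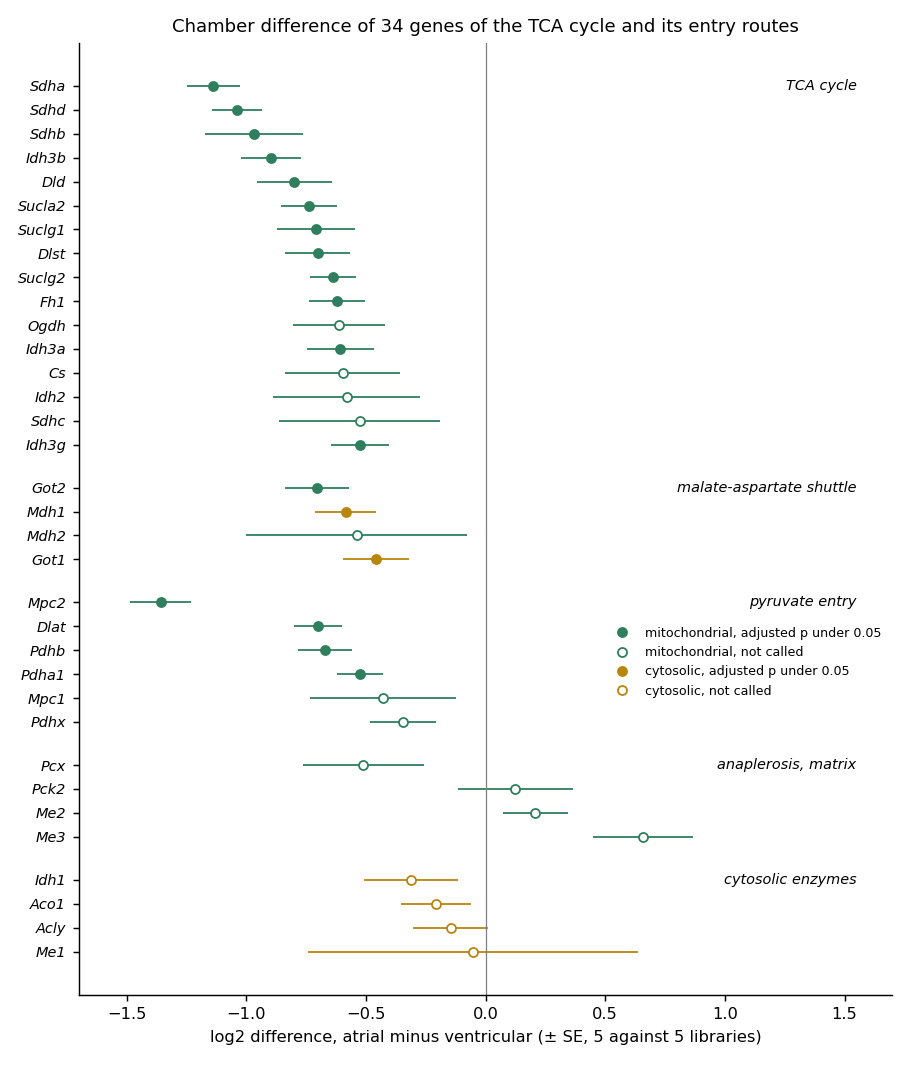
Log2 difference between atrial and ventricular libraries (horizontal axis, atrial minus ventricular, with its SE, 5 against 5 libraries) of the 34 genes, grouped by role. Filled points passed limma's test at an adjusted p under 0.05, and colours separate mitochondrial from cytosolic enzymes. The 19 filled points all lie to the left of 0, from -1.36 for Mpc2 to -0.46 for Got1, and the malic enzyme gene Me3 lies farthest to the right at 0.66.

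Replicate numbers are shared between the chambers, but the labels do not say that same-numbered libraries belong together. With the replicate set removed, their deviations from the group means correlated at -0.0394, 0.00205 and 0.0678 for replicates 3 to 5. Those pairs are thus pairs by number only. With the replicate number as a block in the limma model, 26 of the 34 were lower and 1, Me3, was higher in atrial libraries, while 16.0% of all genes were lower and 16.3% higher in that fit. The 7 genes added to the lower group were Cs, Idh2, Ogdh, Sdhc, Mdh2, Pdhx and Idh1. With the replicate set as a term instead, 25 of the 34 were lower, without Idh1, and Me3 was higher. In that fit 1966 of the 12422 genes were lower and 1989 higher. In 27 of the 34 the atrial library was lower in each of the 5 same-numbered pairs, and in 2, Me2 and Me3, it was higher in each. The share of all genes for which this held was not counted, so these numbers have no background beside them.

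Of the 16 genes of the cycle, 12 were lower in atrial cardiomyocytes, and with the replicate block all 16 were. Their differences ran from -1.14 to -0.53, with a median of -0.67. The largest differences belonged to 3 of the 4 subunits of succinate dehydrogenase, the enzyme that also serves as complex II of the respiratory chain. Sdha (chr13:74322254-74350280 on GRCm38), the flavoprotein subunit that oxidizes succinate, had 3900.5, 4475, 4400.1, 4479 and 4268 normalized reads in atrial replicates 1 to 5 and 10435, 10505, 9807, 8067 and 8736 in ventricular replicates 1 to 5. No atrial library came near the lowest ventricular one, and the means of 4305 ± 241 and 9510.1 ± 1074 (SD, n = 5) differed by 2.21-fold (log2 difference -1.14 ± 0.11, limma adjusted p = 7.05e-05).

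Sdhd (chr9:50596357-50603812), a membrane anchor subunit, had 1058, 1249, 1423, 1330.2 and 1198 normalized reads in the atrial and 2685, 2554, 2689, 2499.9 and 2393 in the ventricular libraries. The atrial values were again all below the ventricular ones, by 2.05-fold in the mean (-1.04 ± 0.10, limma adjusted p = 8.35e-05). Sdhb, the iron-sulfur subunit, stood at 953 ± 209.6 against 1867 ± 430.1 normalized reads (SD, n = 5; log2 difference -0.97 ± 0.20, limma adjusted p = 0.00827). The other membrane anchor, Sdhc, showed 2007, 2294, 1078, 984 and 935 in atrial and 2709, 3364, 1482, 1461 and 1433 in ventricular libraries. Here replicates 1 and 2 of both chambers were high and replicates 3 to 5 low, so the groups overlapped. The call was absent in the main fit (-0.53 ± 0.34, limma adjusted p = 0.384, and 0.000347 with the replicate block). Within each set the atrial libraries of Sdhc were lower, by 1.41-fold in replicates 1 and 2 and by 1.46-fold in replicates 3 to 5.

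**Figure D2:**
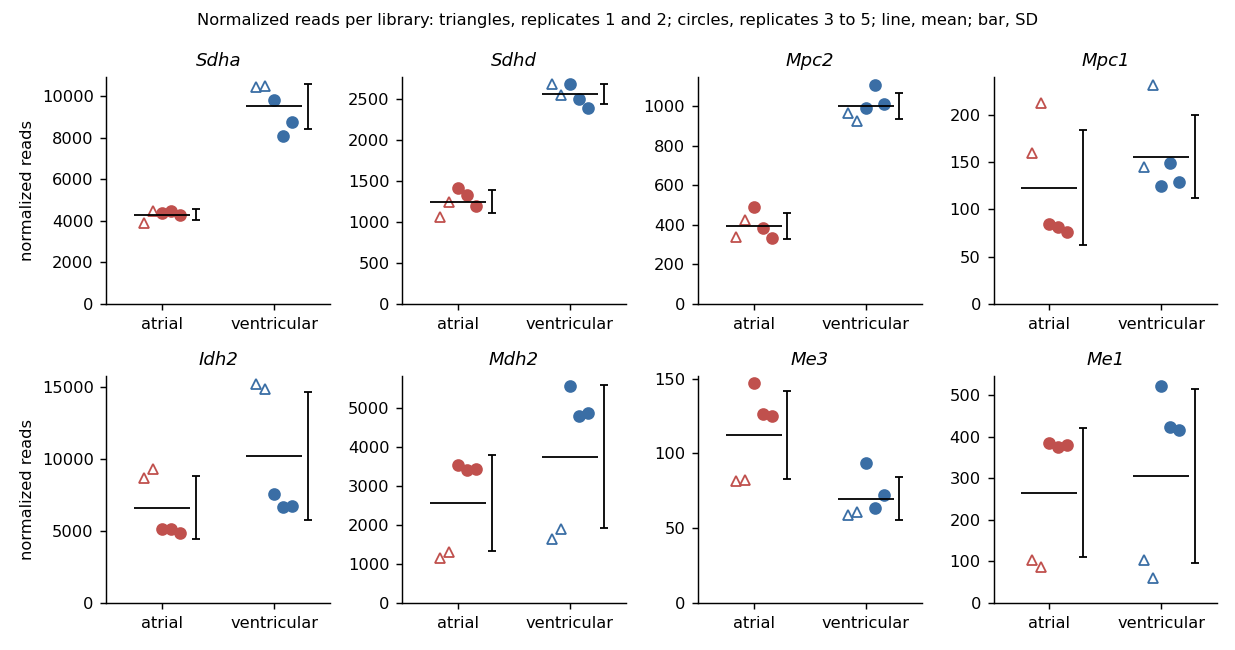
Normalized reads (vertical axes, each from 0) of 8 genes in every library of each chamber, with open triangles for replicates 1 and 2, filled circles for replicates 3 to 5, a line for the mean and a bar for the SD. Sdha, Sdhd and Mpc2 separate the chambers in all 10 libraries, while Idh2, Mdh2 and Me1 separate the replicate sets more widely than the chambers.

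The 3 genes of the NAD-dependent isocitrate dehydrogenase, which commits isocitrate to oxidation in the cycle, were all lower in atrial cells. Idh3b, a regulatory subunit, fell the most, with 1612, 2028, 1534, 1561 and 1427 normalized reads in atrial and 3214, 3554, 2855, 2787 and 2756 in ventricular libraries. All 5 atrial libraries lay below the ventricular ones (-0.90 ± 0.12, limma adjusted p = 0.000724). The catalytic subunit gene Idh3a ran from 1972 to 2958 in atrial and 3446 to 4493 in ventricular libraries (-0.61 ± 0.14, limma adjusted p = 0.0125). For the other regulatory subunit gene, Idh3g, the ranges were 1566 to 1864 in atrial and 2068 to 2835 in ventricular libraries (-0.53 ± 0.12, limma adjusted p = 0.0136). Neither gene had overlapping groups. Idh2, the NADP-dependent enzyme of the matrix, had 8685, 9259.8, 5097, 5104 and 4881 in atrial and 15196, 14836, 7591, 6659.7 and 6703 in ventricular libraries. Its atrial replicates 1 and 2 were above ventricular replicates 3 to 5, so the groups overlapped, although the atrial library was lower in all 5 pairs (-0.58 ± 0.31, limma adjusted p = 0.275, and 0.000647 with the replicate block).

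The 2-oxoglutarate dehydrogenase complex is built from Ogdh, Dlst and the dehydrogenase subunit Dld, which it shares with pyruvate dehydrogenase. Dld stood at 2726 ± 511 in atrial against 4694 ± 539 normalized reads in ventricular libraries (SD, n = 5; -0.80 ± 0.16, limma adjusted p = 0.00527), with no overlap. Dlst, the succinyltransferase core, ranged from 2019 to 2782 in atrial and 3353 to 4759.6 in ventricular libraries (-0.70 ± 0.14, limma adjusted p = 0.00515). Ogdh, the subunit that decarboxylates 2-oxoglutarate, had 2674, 2989.7, 3561, 3579.7 and 3721 in atrial and 3522, 3990.0, 6740.1, 5594 and 5969 in ventricular libraries. Atrial replicates 3 to 5 reached the level of ventricular replicate 1, and the difference of -0.61 ± 0.19 missed the threshold (limma adjusted p = 0.0567, and 0.000992 with the replicate block). Ogdh passed when ventricular replicate 1 or replicate 2 or both libraries of replicate 1 were left out, and with edgeR and DESeq2.

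Succinyl-CoA ligase pairs the common subunit Suclg1 with either Sucla2, which makes the ATP-forming enzyme, or Suclg2, which makes the GTP-forming one. Suclg1 ranged from 880.0 to 1421 in atrial and 1498 to 2310.1 in ventricular libraries, and Sucla2 from 1913 to 2643 in atrial and 3663 to 4392 in ventricular libraries. All 3 were lower in atrial cells without overlap, with log2 differences of -0.71 ± 0.16 for Suclg1, -0.74 ± 0.12 for Sucla2 and -0.64 ± 0.10 for Suclg2 (limma adjusted p = 0.0129, 0.00171 and 0.00129). Suclg2 had 397, 386, 390.3, 407 and 456 normalized reads in atrial and 689, 673, 625, 564 and 623 in ventricular libraries. Fh1, the fumarase gene, stood at 1687 ± 150.5 against 2602 ± 323 normalized reads (SD, n = 5; -0.62 ± 0.12, limma adjusted p = 0.00417). Cs, the citrate synthase gene, had 2266, 2605, 3582, 3502 and 3687 in atrial and 3121, 3290.5, 6565, 5494 and 5859.5 in ventricular libraries. Its ventricular replicates 1 and 2 were below the atrial replicates 3 to 5. Its difference did not pass in the main fit (-0.60 ± 0.24, limma adjusted p = 0.14, and 0.000987 with the replicate block). Cs passed with DESeq2 (adjusted p = 0.0454) but not with edgeR (adjusted p = 0.0976). It also passed with the replicate set as a term (limma adjusted p = 0.000198) and within replicates 3 to 5.

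Promoter sequences were examined because so many of these genes were lower together. They were taken from RefSeq on GRCm38.p6, each from 250 bases before to 50 after a gene's start, and 31 of the 34 genes matched, all but Idh3a, Sdhc and Me2. Searched on both strands, the element of the nuclear respiratory factor NRF1 (GCGC, any base, T, then GCGC) was present in 4 of these 31 (12.9%), namely Dld, Sucla2, Sdha and Sdhd, against 5.22% of all 26742 genes with a promoter. The core CCGGAAGNG of the sites for the ETS factor GABP (NRF2) was present in Idh3b, Idh3g, Dlst and Sdhb (12.9% against 4.59% of all genes). The element TNAAGGTCA of the oestrogen-related receptors was found in Sdhd (3.23% against 1.43%), where it lies after the start, and the YY1 core AAGATGGCG in Idh3g (3.23% against 1.65%). These matches describe letters in a window and not bound sites, and the shares were not tested. The stretches before the start of Sdha (chr13:74350241-74350388, minus strand), Sdhd (chr9:50603869-50603978, minus strand) and Sucla2 (chr14:73552719-73552785, plus strand) are shown because Sdha and Sdhd had the largest differences of the cycle and Sdha carries 3 matches. Capitals mark the NRF1 element, read 5′ to 3′ on the gene's strand.

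Sdha: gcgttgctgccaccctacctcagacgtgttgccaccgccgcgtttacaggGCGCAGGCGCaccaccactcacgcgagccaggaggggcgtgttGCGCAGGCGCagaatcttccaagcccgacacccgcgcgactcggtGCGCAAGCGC

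Sdhd: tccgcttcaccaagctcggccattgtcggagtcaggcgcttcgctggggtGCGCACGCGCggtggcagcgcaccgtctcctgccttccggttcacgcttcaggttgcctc

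Sucla2: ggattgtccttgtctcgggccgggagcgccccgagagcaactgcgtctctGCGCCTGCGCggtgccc

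In Sdha the last of the 3 matches ends at the base before the annotated start. The match in Sucla2 lies close before the start, and the one in Sdhd farther upstream. Mpc2, which had the largest difference of all 34 genes, held none of the 4 motifs in its window.

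Of the 6 genes of pyruvate entry, 4 were lower in atrial cells, and 5 with the replicate block (median difference -0.60). Mpc2 (chr1:165460637-165481214), a subunit of the mitochondrial pyruvate carrier, had 337, 423, 493, 386 and 332 normalized reads in the atrial libraries and 969, 929, 995, 1109 and 1010.1 in the ventricular libraries. The highest atrial library, at 493, was far below the lowest ventricular one, at 929, and the means of 394 ± 66.6 and 1002 ± 67.3 (SD, n = 5) differed by 2.54-fold (-1.36 ± 0.13, limma adjusted p = 4.71e-05). The fold was 2.50 within replicates 1 and 2 and 2.57 within replicates 3 to 5. Its partner Mpc1, with which it forms the carrier, had 160.0, 213, 84.6, 81.4 and 76.6 in atrial and 145, 232, 125, 149 and 129 in ventricular libraries. Replicate 2 was the highest of each chamber and the groups overlapped (-0.43 ± 0.31, limma adjusted p = 0.448, and 0.0676 with the replicate block). Within replicates 3 to 5 Mpc1 was lower in atrial cells (-0.72), and within replicates 1 and 2 the difference was 0.01.

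The pyruvate dehydrogenase complex joins a decarboxylase (Pdha1 and Pdhb), an acetyltransferase core (Dlat), the shared Dld and the binding protein Pdhx that tethers Dld. Pdha1, on the X chromosome, had 4212, 4786, 4681, 4636 and 4844 in atrial and 6508, 6376, 7161, 6283 and 7040.1 in ventricular libraries. The chambers did not overlap and the libraries of each were close together (-0.53 ± 0.10, limma adjusted p = 0.00362). Pdhb ranged from 2127 to 2634 in atrial and 3317 to 4131 in ventricular libraries (-0.67 ± 0.11, limma adjusted p = 0.00241), and Dlat from 1033 to 1298 in atrial and 1796 to 2077 in ventricular libraries (-0.70 ± 0.10, limma adjusted p = 0.000872). Neither gene had overlapping groups, and both were lower in the atrial library of each pair. Pdhx stood at 599 ± 98.3 against 757 ± 98.9 normalized reads (SD, n = 5) with overlapping groups (-0.34 ± 0.14, limma adjusted p = 0.136, and 0.0131 with the replicate block).

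Of the 4 enzymes of the malate-aspartate shuttle, 3 were lower in atrial cells, and 4 with the replicate block (median difference -0.56). Got2, the mitochondrial aspartate aminotransferase, had 818, 1031, 1216, 1193 and 1267 in atrial and 1719.6, 1779, 1995, 1651 and 1767 in ventricular libraries. All atrial libraries were below the ventricular ones (-0.70 ± 0.13, limma adjusted p = 0.0044). Its cytosolic counterpart Got1 had 1248 ± 191 against 1717 ± 257 normalized reads (SD, n = 5; -0.46 ± 0.14, limma adjusted p = 0.0482). The call for Got1 was lost when any library other than atrial replicate 2 or ventricular replicate 1 was left out. Atrial replicate 2 of Got1, at 1578, was above ventricular replicate 1, at 1412.

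Mdh1, the cytosolic malate dehydrogenase, stood at 4429.8 ± 632 in atrial against 6616 ± 635 in ventricular libraries, with no overlap (-0.59 ± 0.13, limma adjusted p = 0.0104). Mdh2, the mitochondrial enzyme that serves both the shuttle and the last step of the cycle, had 1152, 1306, 3522, 3400.4 and 3420.1 in atrial and 1626, 1896, 5563, 4787 and 4862 in ventricular libraries. Replicates 3 to 5 were higher than replicates 1 and 2 in both chambers, by 2.81-fold and 2.88-fold, so that the chamber groups overlapped (-0.54 ± 0.46, limma adjusted p = 0.552, and 0.000258 with the replicate block). Within each set every atrial library of Mdh2 was below every ventricular one, with log2 differences of -0.52 for the first set (replicates 1 and 2) and -0.55 for the other.

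The 4 matrix enzymes that refill or drain the cycle did not share this pattern. None passed limma's test, 3 of the 4 differences were positive, and the median was 0.17. Me3, a mitochondrial NADP-dependent malic enzyme that turns malate into pyruvate, had 81.4, 82.0, 147, 126 and 125 normalized reads in atrial and 58.8, 60.9, 93.6, 63.5 and 72.3 in ventricular libraries. The atrial library was higher in all 5 pairs, while the groups overlapped because atrial replicates 1 and 2 were below ventricular replicate 3. The difference of 0.66 ± 0.21 missed the threshold (limma adjusted p = 0.0599) and passed it with the replicate block (adjusted p = 0.00401). It was 0.44 within replicates 1 and 2 and 0.80 within replicates 3 to 5. Me3 also passed when atrial replicate 1, atrial replicate 2 or ventricular replicate 3 was left out, and with edgeR and DESeq2.

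Me2, the NAD-dependent mitochondrial malic enzyme, stood at 141 ± 9.96 against 123 ± 18.7 normalized reads (SD, n = 5) and was higher in the atrial library of all 5 pairs, without passing either fit (0.21 ± 0.14, limma adjusted p = 0.396, and 0.166 with the replicate block). Pck2, the mitochondrial form of phosphoenolpyruvate carboxykinase, ranged from 65.4 to 137 in atrial and 62.3 to 117 in ventricular libraries (0.12 ± 0.24, limma adjusted p = 0.841), and atrial replicate 2 was the highest of all its libraries at 137. Pcx, pyruvate carboxylase, which makes oxaloacetate from pyruvate, was low throughout, with 27.6, 36.0, 34.7, 20.05 and 22.5 in atrial and 55.4, 51.2, 33.5, 37.4 and 27.2 in ventricular libraries (-0.51 ± 0.25, limma adjusted p = 0.237). Its gene overlaps Lrfn4, which averaged 47.4 normalized reads against 34.5 for Pcx, and without a stated strand setting reads of the overlap cannot be told apart.

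Of the 4 cytosolic enzymes outside the shuttle, none passed limma's test on all 10 libraries, edgeR or DESeq2, and none had an unadjusted p under 0.05. Within replicates 3 to 5 alone, where 26.6% of all genes were lower, Idh1, Me1 and Aco1 were lower in atrial cells (limma adjusted p = 4.75e-05, 0.00694 and 0.0124). All 4 differences were negative, with a median of -0.18. Idh1, the NADP-dependent isocitrate dehydrogenase of cytosol and peroxisomes, had 488, 800.3, 443, 450.5 and 445 in atrial and 657, 882, 529, 573 and 580.1 in ventricular libraries. Replicate 2 was the highest of each chamber, and the atrial library was lower in all 5 pairs (-0.31 ± 0.20, limma adjusted p = 0.377, and 0.0095 with the replicate block). With the replicate set as a term, Idh1 did not pass (limma adjusted p = 0.0787). Aco1, the cytosolic aconitase that doubles as an iron-regulatory protein, stood at 232 ± 43.4 against 266 ± 36.9 (SD, n = 5; -0.21 ± 0.15, limma adjusted p = 0.441). Acly, which cleaves exported citrate into acetyl-CoA for lipid synthesis, stood at 392 ± 39.1 against 441 ± 101 (-0.15 ± 0.16, limma adjusted p = 0.664).

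Me1, the cytosolic malic enzyme, had 103, 86.4, 384, 375 and 380.4 normalized reads in atrial and 104, 60.9, 523, 423 and 416 in ventricular libraries. Replicates 3 to 5 were 4.0-fold higher than replicates 1 and 2 in atrial cells and 5.51-fold higher in ventricular cells. Its chamber difference was -0.05 ± 0.69 (limma adjusted p = 0.978), with 0.25 within replicates 1 and 2 and -0.25 within replicates 3 to 5, and with equal totals it turned to 0.018.

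Grouped by place, 17 of the 28 mitochondrial genes and 2 of the 6 cytosolic ones, Mdh1 and Got1, were lower in atrial cells. The median difference was -0.62 for the mitochondrial and -0.26 for the cytosolic genes. Whether a mitochondrial enzyme differed from its cytosolic counterpart was tested as the log2 ratio of the 2 genes within each library, which removes the scaling of the library. For 5 mitochondrial over cytosolic pairs and 5 other pairs, 10 in all, an exact two-sided permutation test over every way of drawing 5 atrial libraries from the 10 was used, with p-values adjusted over the 10. None of the 10 passed after adjustment, and 1, Mpc1/Mpc2, had an unadjusted p under 0.05. The smallest p this permutation test can give is 0.0079. After adjustment over the 10, 1 ratio on its own could not pass, however far apart the chambers lay. The absence of a call thus does not show that the ratios were equal.

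Idh2/Idh1 averaged 3.63 ± 0.29 in atrial and 3.90 ± 0.42 in ventricular libraries (log2, SD, n = 5), a difference of -0.27 ± 0.23 (exact permutation p = 0.27, adjusted 0.603). It was lower in the atrial library in all 5 pairs. The difference was -0.46 within replicates 1 and 2 and -0.14 within replicates 3 to 5, and -0.11 without ventricular replicate 1. Got2/Got1 differed by -0.24 ± 0.18 (exact permutation p = 0.238, adjusted 0.603). This came to -0.59 within replicates 1 and 2 and -0.016 within replicates 3 to 5, and to -0.16 or -0.14 without atrial replicate 1 or 2. Mdh2/Mdh1 differed by 0.05 ± 0.43 (exact permutation p = 0.841, adjusted 0.952). The malic enzyme ratio Me3/Me1 was -0.34, -0.07, -1.38, -1.56 and -1.60 in atrial and -0.81, 0.00, -2.47, -2.72 and -2.51 in ventricular libraries. Within replicates 3 to 5 every atrial ratio was above every ventricular one, while replicates 1 and 2 overlapped, and the whole difference of 0.71 ± 0.64 did not pass (exact permutation p = 0.278, adjusted 0.603). Me2/Me1 differed by 0.26 ± 0.70 (exact permutation p = 0.571, adjusted 0.816) and was higher in the atrial library in all 5 pairs.

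Mpc1/Mpc2, the ratio of the carrier subunits, was -1.07, -0.99, -2.53, -2.23 and -2.10 in atrial and -2.73, -1.999, -2.99, -2.89 and -2.96 in ventricular libraries. The atrial library was higher in all 5 pairs, and the difference of 0.93 ± 0.37 had an exact permutation p of 0.0397, or 0.397 adjusted. With labels permuted within the replicate sets the exact p was 0.0167, the smallest that test can give, and 0.167 adjusted. Cs/Acly, which sets citrate synthesis against citrate cleavage, was lower in the atrial library in all 5 pairs (difference -0.45 ± 0.41, exact permutation p = 0.302, adjusted 0.603, and 0.0333 and 0.167 within sets). Its difference was -0.71 in replicates 3 to 5 and -0.06 in replicates 1 and 2, and leaving out 1 library gave -0.70 (ventricular replicate 1) to -0.27 (ventricular replicate 3). The remaining 3, Idh3a/Idh2, Sucla2/Suclg2 and Pdha1/Pcx, differed by -0.03 ± 0.45, -0.10 ± 0.12 and -0.02 ± 0.27.

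**Figure D3:**
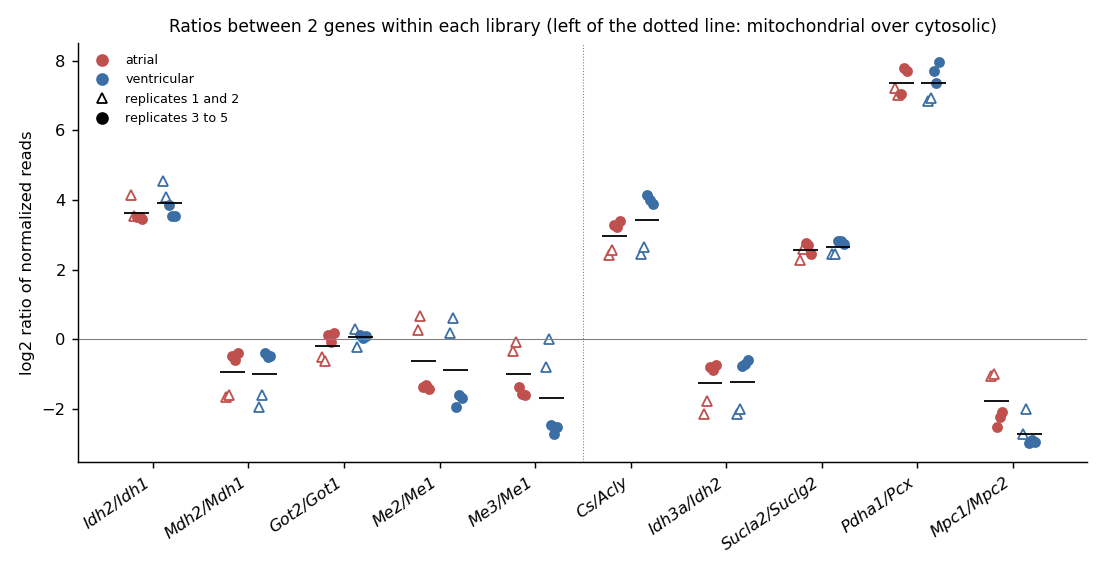
Log2 ratio of the normalized reads of 2 genes (vertical axis) in each atrial and ventricular library, with triangles for replicates 1 and 2, circles for replicates 3 to 5 and a line for the mean. The chambers overlap in all 10 ratios, and in Mpc1/Mpc2 the atrial mean of -1.78 lies above the ventricular mean of -2.71.

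The chamber differences were read again within each replicate set. Within replicates 3 to 5, 29 of the 34 were lower and 1, Me3, was higher, against 26.6% and 26.2% of all genes. Within replicates 1 and 2, 12 were lower and none higher, against 2.04% and 3.09% of all genes. Direction was the same in both sets for 31 of 34 genes, all but Me1, Mpc1 and Pck2, and the share over all genes was not counted. A change in size between the sets passed limma's interaction test for none of the 34, against 5.21% of all genes, and 7 had an unadjusted p under 0.05 (Cs, Idh2, Ogdh, Sdha, Got2, Mpc1 and Acly). The level itself differed between the sets for 24 of the 34, against 52.7% of all genes. Of these, 11 were higher in replicates 1 and 2, among them Idh2, Sdhc and Idh1, and 13 were higher in replicates 3 to 5, among them Mdh2, Cs, Ogdh and Me1. Genes of 1 enzyme could go opposite ways, as Sdhb was among the 13 and Sdhc among the 11.

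**Figure D4:**
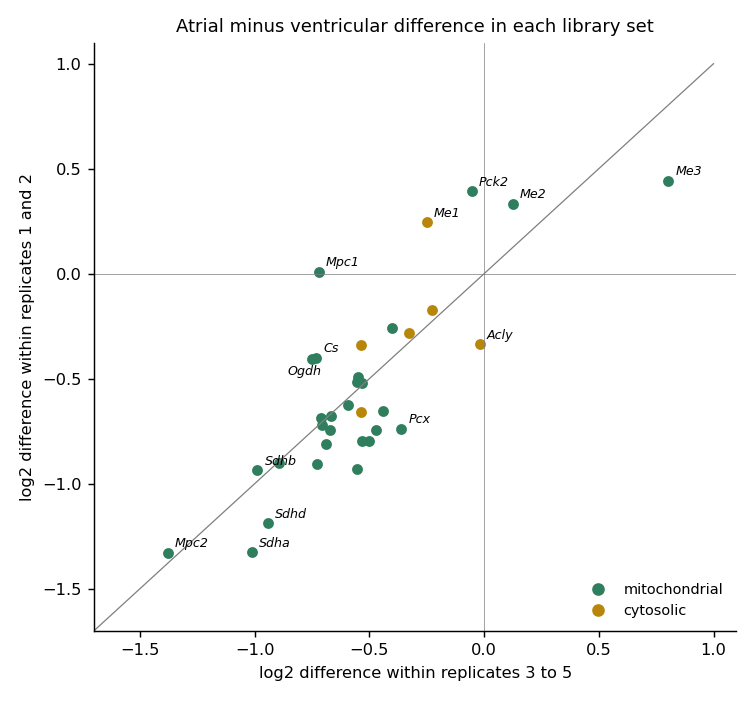
Log2 difference, atrial minus ventricular, within replicates 3 to 5 (horizontal axis) and within replicates 1 and 2 (vertical axis) for the 34 genes, with mitochondrial and cytosolic enzymes in different colours and the line of equal values. Mpc2 and Sdha are lowest in both sets, and Mpc1, Pck2 and Me1 differ in sign between the sets.

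Levels of different genes were compared as normalized reads per kilobase of annotated exon. On that scale Idh2 had the highest mean of the 34 in both chambers, 2552 in atrial and 3940.1 in ventricular libraries. Mdh1 came next with 1726 and 2577. The order was not the same in every library. Mdh1 was above Idh2 in atrial replicate 4 (2010 against 1972) and in ventricular replicates 4 (2676 against 2573) and 5 (2649 against 2590). With the length of the longest coding transcript, the ventricular mean of Sdha (3279) was above that of Mdh1 (3118). The lowest were Me2, Pck2, Pcx and Me3, with at most 19.4 in atrial and 16.9 in ventricular libraries. Within enzymes, the ATP-forming Sucla2 exceeded the GTP-forming Suclg2 per kilobase by 6.84 ± 0.91-fold in atrial and 7.33 ± 0.97-fold in ventricular libraries (SD, n = 5). Idh2 exceeded the cytosolic Idh1 by 13.5 ± 3.09-fold and 16.6 ± 5.12-fold.

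For both shuttle enzymes the cytosolic gene had the higher mean level per kilobase of exon. Mdh1 exceeded Mdh2 by 2.89 ± 1.29-fold in atrial and 3.07 ± 1.63-fold in ventricular libraries, and Got1 exceeded Got2 by 2.21 ± 0.56-fold and 1.83 ± 0.25-fold. With the length of the longest coding transcript in place of all exons, the ratios were 1.43 and 1.52 for Mdh1 over Mdh2 and 1.43 and 1.18 for Got1 over Got2. With that length Mdh1 was below Mdh2 in 5 of the 6 libraries of replicates 3 to 5 (lowest ratio 0.90), so that the order of these isozymes turned there. Sdhd exceeded its partner subunit gene Sdhb by 2.45 ± 0.37-fold in atrial and 2.63 ± 0.71-fold in ventricular libraries, and by 1.25 and 1.34 with that other length. Mpc2 over Mpc1 was 1.08 ± 0.48 in atrial and 1.92 ± 0.46 in ventricular libraries, and 3.56 and 6.36 with the longest coding transcript, so the size of this ratio rests on the gene model.

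**Figure D5:**
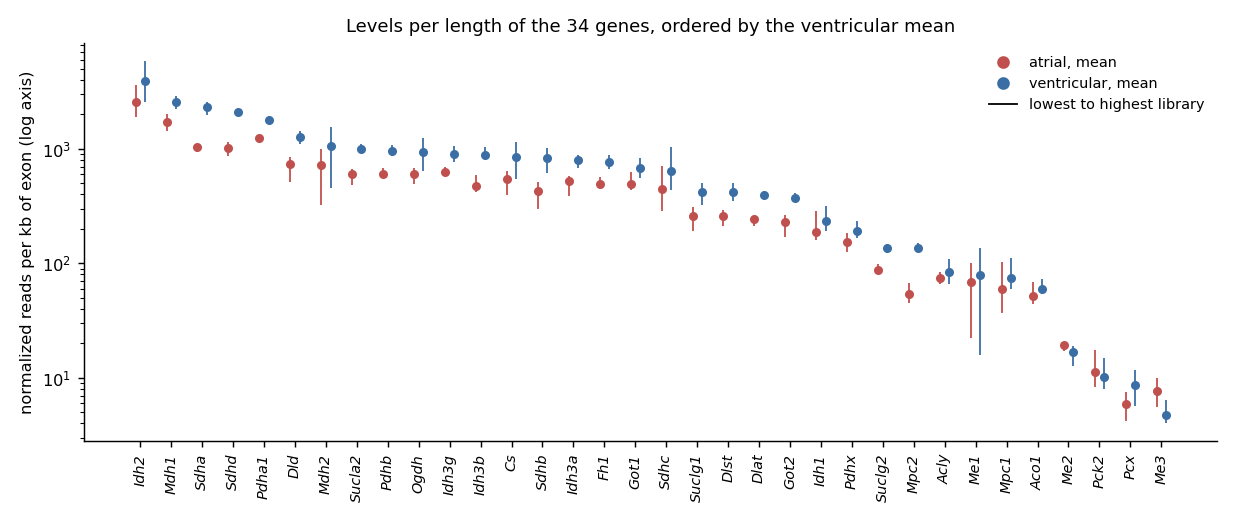
Mean normalized reads per kilobase of annotated exon (vertical axis, logarithmic) of the 34 genes in atrial and ventricular libraries, ordered by the ventricular mean, with lines from the lowest to the highest of 5 libraries. Idh2 and Mdh1 have the highest means in both chambers, with overlapping ranges, and Me3, Pcx, Pck2 and Me2 lie lowest.

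Other genes of the same pathways were taken from 4 lists, whose counts stand against 6.56% of all genes lower and 8.12% higher in the main fit, and 16.0% and 16.3% with the replicate block. Of 17 further matrix enzymes and cofactor genes, 1 was lower in atrial cells and none higher, a share near that of all genes (7 lower with the replicate block; median -0.25). This was Nnt (-0.81), the transhydrogenase that makes NADPH from NADH in mitochondria. Of 10 carriers and partner shuttles, 4 were lower and none higher (8 lower with the block; median -0.49). Slc25a13, an aspartate-glutamate carrier of the malate-aspartate shuttle, had 159, 174, 189, 211 and 220.1 in atrial and 730.0, 536, 848, 692 and 767 in ventricular libraries. This gap of 3.75-fold (-1.90 ± 0.14, limma adjusted p = 1.19e-05) exceeded that of any of the 34. The related carrier Slc25a12 stood at 941 ± 133 against 1143 ± 184 normalized reads (SD, n = 5; -0.28 ± 0.14, limma adjusted p = 0.253, and 0.0124 with the replicate block).

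Slc25a11, the oxoglutarate-malate carrier that completes the shuttle, stood at 584 ± 38.8 against 1160.1 ± 96.5 (-0.99 ± 0.10, limma adjusted p = 8.06e-05). The lactate dehydrogenase genes Ldha (-0.90) and Ldhb (-0.56) were also lower in atrial cells. The glycerol phosphate shuttle genes Gpd1 (-0.42) and Gpd2 (0.22) did not pass in the main fit (limma adjusted p = 0.27 and 0.256). Gpd1 passed with the replicate block (limma adjusted p = 0.0253), with the replicate set as a term and within replicates 3 to 5, and Gpd2 did not with the block (limma adjusted p = 0.0827). Of 7 genes that control pyruvate dehydrogenase, 2 were lower, the phosphatase Pdp1 (-1.03) and the kinase Pdk4 (-0.59), and none was higher (5 lower and 1 higher with the block). Of 9 cytosolic partners 7 were tested, and Gpt (-1.58), Fasn (-0.73) and Acacb (-0.68) were lower and none higher (4 lower and 1 higher with the block). In none of these 4 lists did a gene have a positive difference at an unadjusted p under 0.05, with edgeR or with DESeq2.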

How the data were processed

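RNA was extracted with Trizol and made into ScriptSeq v2 libraries, per the labels' protocols. Trimmomatic, HISAT2 and featureCounts were used on GRCm38 (mm10), per the submitters' processing notes, which give no versions; annotation and strand setting are not given either in the sources used here. Per the file headers, the deposited signal is reads after the authors' DESeq2 scaling of each library. Whole reads were recovered from the steps of these values for 100% of values within a tolerance of 0.01. A value of 0 allows up to 3 reads, or 1.70 to 10.4 normalized reads, as far as counting error goes; reads carry no molecular identifiers and so are not independent molecules.

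The 12422 genes averaging at least 10 normalized reads were tested, all 34 members among them. The two-sided test was limma 3.58.1 (R 4.3.3), with robust variances and a trend, of log2(normalized reads + 1), a scale that understates changes of low genes, with Benjamini-Hochberg adjustment at 0.05. Differences are atrial minus ventricular ± SE. Isozyme ratios were tested by going through every labeling in Python 3.11.15 with numpy 2.4.6. Alternatives were a replicate block, the replicate set as a term or each set alone, other pseudocounts, filters and scalings, edgeR 4.0.16 and DESeq2 1.42.0 on the recovered reads, leaving out libraries, and another gene length. The main limma fit and the ratio test were checked on simulated data that held no difference between replicate sets. The other fits were not checked in this way.

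Libraries of the same number deviated together from their group means, with correlations of 0.582, 0.637, 0.623, 0.556 and 0.631. The number was therefore used as a block. With the replicate set removed the values were 0.405, 0.405, -0.0394, 0.00205 and 0.0678. The first 2 are 1 value, since 2 libraries deviate from their mean by equal and opposite amounts. Atrial replicates 4 and 5 correlated best with a ventricular library of another number. For replicates 3 to 5 the block thus carries the replicate set and no shown pairing. The number comes from the labels, which do not say what it stands for. No pair of libraries of a group agreed within sampling noise, but replicates 3 to 5 came near it. Their chi-square per degree of freedom was 2.21 to 5.25. It was 25.0 for atrial and 7.88 for ventricular replicates 1 and 2, and 64.2 to 101 between the sets. The p-values within replicates 3 to 5 weigh that narrow scatter, part of which may be technical.

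Gene positions and exon lengths came from GENCODE annotation of GRCm38; 9 of the 34 genes overlap another gene of the tables. All 34 genes are named, as are those of the 4 pathway lists that passed the main test and Slc25a11, Slc25a12, Slc25a13, Gpd1, Gpd2, Ldha and Ldhb in any case. A gene of these lists is not reported here and was left out of their counts. The members and lists were chosen with earlier results of these data known.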

Additional observations from a re-analysis of the deposited data

Results flagged for a closer look

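In each chamber's 5 libraries, the highest or lowest library of each of the 34 genes and 10 ratios was compared with the others, 88 groups in all. In 6 of them its gap to the nearest other library exceeded 0.71 of the whole range; chance alone gives about 1 in 20, or 4.4. Idh3a was low in atrial replicate 1, at 1972 normalized reads against 2722 to 2958 in the other 4. Mpc1 was high in ventricular replicate 2, at 232 against 125 to 149, and so was Pck2, at 117 against 62.3 to 72.2. Idh1 was high in atrial replicate 2, at 800.3 against 443 to 488. Among the ratios, Idh2/Idh1 stood at 4.15 on the log2 scale in atrial replicate 1 against 3.45 to 3.53, and Mpc1/Mpc2 at -1.999 in ventricular replicate 2 against -2.99 to -2.73. All 6 lie in replicates 1 and 2, which hold fewer reads than replicates 3 to 5.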

How the results depend on the processing

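Of the 19 calls, 9 held in every setting (Idh3b, Dld, Suclg2, Sucla2, Sdha, Sdhb, Sdhd, Got2 and Mpc2), and 18 held in every setting that left out libraries, Got1 being the exception. Over all genes 1824 were called. With the replicate block 4017 were, 3955 with the replicate set as a term, 6561 within replicates 3 to 5 and 638 within replicates 1 and 2; leaving out libraries gave 1365 to 2143. Genes of the 34 lower in atrial cells numbered 29 within replicates 3 to 5 and 12 within replicates 1 and 2, and 18 to 20 with libraries left out. The number higher was 1 with the replicate block, the set as a term, replicates 3 to 5, equal totals, edgeR and DESeq2, and 0 to 1 with libraries left out. Among the 34 genes the replicate block changed no call beside those given with the results above.

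Differences that changed sign were Mpc1 (0.0091 within replicates 1 and 2), Pck2 (-0.054 within replicates 3 to 5, and -0.051 to 0.28 with libraries left out, negative without atrial replicate 2) and Me1 (0.25 within replicates 1 and 2, 0.018 with equal totals, 0.0071 with equal totals without Rn45s, and -0.52 to 0.28 with libraries left out). With libraries left out, Idh3a/Idh2 ran from -0.25 to 0.19, Pdha1/Pcx from -0.14 to 0.14, Me2/Me1 from -0.065 to 0.63 and Mdh2/Mdh1 from -0.20 to 0.22. None of the 10 ratios passed after adjustment under any setting, and no setting could have passed 1 ratio on its own. The exact sign-flip test over replicate pairs, chosen after seeing the data, cannot go below 0.0625, and tests within replicates 3 to 5 were not made. With the longest coding transcript as length, level ratios in atrial and ventricular libraries were 8.92 and 9.55 for Sucla2 over Suclg2, 1.25 and 1.34 for Sdhd over Sdhb, 1.43 and 1.18 for Got1 over Got2, 3.56 and 6.36 for Mpc2 over Mpc1, and 1.43 (atrial) for Mdh1 over Mdh2. The cause was not tested. Depth limits Pcx, Pck2 and Me3 most, since they hold the fewest reads.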
